A study of Mus musculus with 18 samples.

Results

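The H3K4me3 peaks described here are those that overlap chromosome 17 from 33000000 to 38000000 (mouse build mm9), a span of 5 Mb known for the mouse major histocompatibility complex (MHC, or H2). They were chosen by position alone: 144 of the 21905 peaks of the control list and 151 of the 21434 peaks of the Men1 knockout list, 295 of 43339 peaks in all. The whole span is called the MHC region below, though its limits were not set by the H2 genes. H3K4me3, trimethylation of lysine 4 of histone H3, marks active and poised promoters, and ChIP-seq locates it by sequencing the DNA that an antibody to the mark pulls down. The control islets came from RIP-Cre mice, in which the rat insulin promoter drives Cre recombinase, and the other islets from mice labelled as an islet-specific knockout of Men1, both harvested at the age of 2 months. The background of all mice mixed the strains 129s6, C57BL/6 and FVB/N. The labels do not say which Cre line made the knockout, how complete the deletion was, or whether islets of several mice were pooled. The rat insulin promoter is active in beta cells, and an islet also holds other endocrine, vascular and immune cells. There was 1 library per genotype, so the values below compare a pair of libraries and no test of the genotype was possible.

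Men1 encodes menin, a partner of the MLL1 and MLL2 methyltransferases that place H3K4me3 at a subset of promoters. The MHC holds genes for antigen presentation. Class I molecules display peptides from inside the cell on nearly every cell type, islet cells included, while class II molecules are made mainly by dendritic cells, macrophages and B cells, which are rare in a healthy islet. Between the class II genes and the later class I genes lies the class III segment, dense with complement, cytokine and widely expressed genes. Inbred strains differ in this region more than almost anywhere else in the genome, both in sequence and in how many class I genes of the Q and T groups they carry.

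In the RefSeq gene table for GRCm38.p6, a later build than that of the peaks, the run of genes from H2-K2 to H2-M2 held 285 genes, of which 169 were protein-coding and 69 were pseudogenes. There were 46 genes with an H2 symbol. They follow one another as the K group of class I (2 genes), the class II and related genes (12 genes, among them H2-Aa, H2-Ab1 and H2-Eb1), H2-D1, the Q group (8 genes), the T group (7 genes) and the M group (15 genes). One more, H2-Ke6, is a metabolic enzyme gene that only shares the name. The run also held 27 olfactory receptor genes, which are read in sensory neurons of the nose. No annotation of mm9 was used here, so no peak below is assigned to a gene, and neither the name of the region nor the islet origin of the chromatin could be set against marker genes.

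Some class I promoters resemble each other closely, and a pair of them is shown here beside a class II promoter. Each sequence below is the 250 bases before the first listed start in RefSeq (GRCm38.p6, 5′ to 3′ on the gene's own strand, positions not given because the build differs from that of the peaks). H2-D1 encodes a classical class I chain, H2-Q6 a class I chain of the Q group and H2-Aa the alpha chain of a classical class II molecule. Capitals mark the letters GATTGG (on either strand, so also CCAATC), which include the CCAAT sequence that the factor NF-Y binds. They also mark TTTCACTT, part of the interferon response element of class I promoters. A site that reads ATTGG after another letter stays in lower case, and no marked GATTGG was assigned to a known promoter box.
H2-D1 (+ strand): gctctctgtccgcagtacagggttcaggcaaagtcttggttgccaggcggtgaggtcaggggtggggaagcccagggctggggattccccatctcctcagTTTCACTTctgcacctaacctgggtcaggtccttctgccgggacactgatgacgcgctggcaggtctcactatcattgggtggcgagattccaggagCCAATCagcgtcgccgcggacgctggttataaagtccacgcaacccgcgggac
H2-Q6 (+ strand): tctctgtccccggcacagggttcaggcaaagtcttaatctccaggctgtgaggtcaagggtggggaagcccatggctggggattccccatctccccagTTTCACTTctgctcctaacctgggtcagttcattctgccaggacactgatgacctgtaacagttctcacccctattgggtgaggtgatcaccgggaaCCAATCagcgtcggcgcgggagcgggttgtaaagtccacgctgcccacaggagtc
H2-Aa (- strand): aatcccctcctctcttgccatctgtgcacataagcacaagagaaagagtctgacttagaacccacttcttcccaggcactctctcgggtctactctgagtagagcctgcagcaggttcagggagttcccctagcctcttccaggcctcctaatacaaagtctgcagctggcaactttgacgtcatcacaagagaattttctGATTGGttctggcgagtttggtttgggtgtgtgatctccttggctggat

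The H2-D1 and H2-Q6 stretches were 82.2% identical in a global alignment, and the longest run of identical bases was 21. The median identity over the 253 pairs among 23 class I promoters was 48.9%. Of these pairs 12 were at least 80% identical, 10 of them between genes of the H2-M10 family, H2-D1 with H2-Q6, and H2-T23 with H2-T-ps, which shared a run of 86 identical bases. GATTGG was found in 16 of the 23 class I promoters (69.6%) and in 7 of 8 class II promoters (87.5%), against 15.1% of all 27025 promoters of the table. TTTCACTT was found in 9 class I promoters (39.1%), in 0 class II promoters and in 1.44% of all promoters. The motifs share no letters in the sequences printed. The motifs were chosen after the promoter sequences were seen, and several class I promoters are near copies, so these shares are a description only. A match is one of letters only and was not related to the peaks.

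The MHC region was densely marked in both genotypes. The control list held 28.8 peaks per Mb there, against 10.6 per Mb over the rest of chromosome 17 between its outermost peaks, and the knockout list held 30.2 against 9.99 per Mb. Peaks covered 293.8 kb of the region in control islets (5.88% of it) and 268.1 kb in knockout islets (5.36%). The knockout length was 91.2% of the control length in the region, 88.2% over the rest of the chromosome and 90.1% over the whole lists. Widths in the region ran from 519 to 8487 bp with a median of 1862 bp (95% interval 1650 to 2004) in control islets and from 403 to 8691 bp with a median of 1540 bp (1400 to 1765) in knockout islets. Among the 17 other windows of 5 Mb along the chromosome, only the one from 23000001 held more peaks in either list (164 control and 168 knockout peaks).

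Marking was uneven along the region. By windows of 1 Mb from left to right, the control list held 24, 38, 45, 25 and 12 peaks and the knockout list 25, 42, 46, 26 and 12. The windows from 34000001 to 36000000 therefore held most of each list's peaks in the region. The longest gap between neighbouring peaks of the region was in the same place in both lists, 520.0 kb from 36452916 to 36972908 in control islets and 520.0 kb from 36452995 to 36973027 in knockout islets. To the right of 37408826 neither list had a peak within the region. The plot of covered length by window shows this order, with the control bar higher than the knockout bar in 15 of 17 marked windows.

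**Figure D1:**
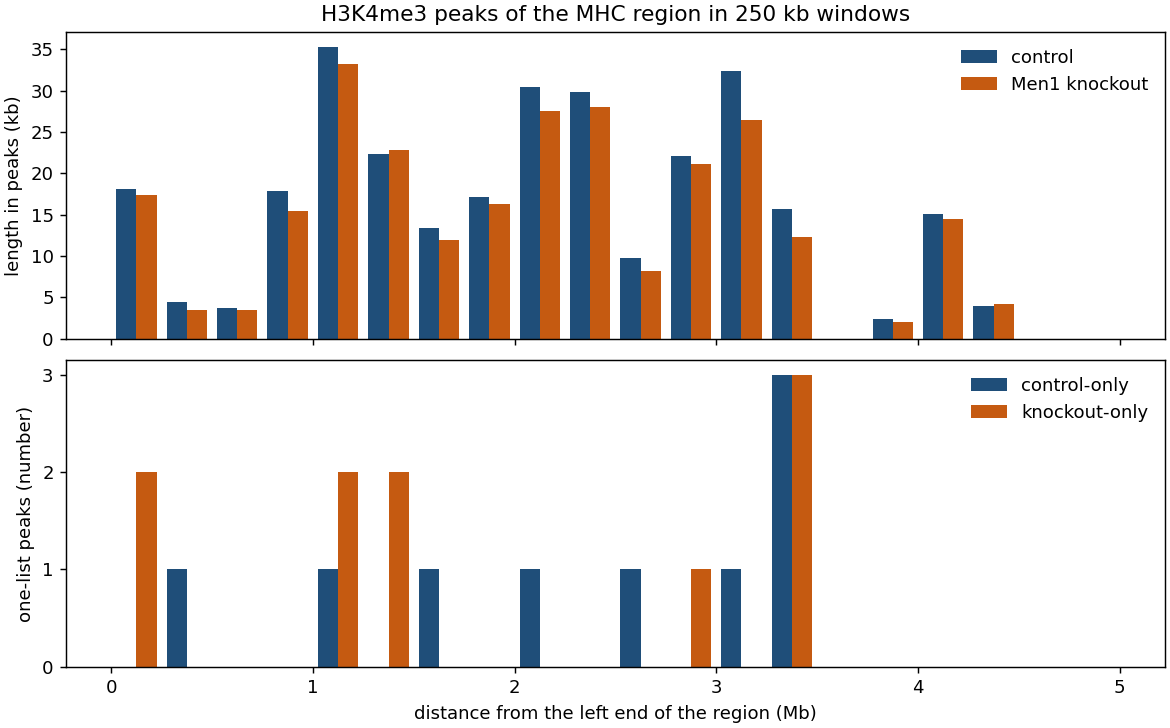
Top, length called as H3K4me3 peaks (kb) in each 250 kb window of the MHC region; bottom, number of peaks found in 1 list alone; x axis, distance from the left end of the region (Mb), with control in blue and Men1 knockout in orange. One window, from 3.25 to 3.5 Mb, holds 3 control-only and 3 knockout-only peaks, and 3 of the 20 windows hold no peak in either list.

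The broadest domains of the region, ranked by the mean of their control and knockout lengths, had similar lengths in both lists. Such a ranking favours domains that are broad in both. The broadest region marked in both lists lay from 34252767 to 34261562, where a single control peak of 8487 bp (score 3100) lay beside a single knockout peak of 8691 bp (score 3100). Scores are those the authors deposited, 1 per peak, and many of the highest are tied at 3100. The next lay from 34163617 to 34170335, with 6638 bp in the control and 6509 bp in the knockout list. Next in size was 35836027 to 35842551, with 6525 and 6149 bp. The domain from 36051865 to 36057308 was 1 control peak of 5444 bp and 2 knockout peaks that together covered 5189 bp. The remaining 4 of the 8 broadest, from 35377437, 36001998, 35299381 and 36114965, had log2 ratios of knockout over control length between -0.09 and 0.05. None of these 8 domains changed its length by 1.5 times or more, the size used here to call a change in width. Such changes were rare among wide peaks. Among the 326 pairs of single peaks with the widest control peaks over the rest of chromosome 17, 5 (1.53%) were narrower by that much in the knockout list and 0 wider. In the same width class over the whole lists, 247 of 8546 pairs (2.89%) were narrower and 1 wider. The count of 0 of 8 therefore does not set these domains apart.

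Fewer control peaks were without a knockout partner in the MHC region than elsewhere on the chromosome. A shared peak is one that overlaps, by 1 bp or more, some peak called in the other genotype. Of the 144 control peaks of the region 9 were control-only (6.25%, exact 95% interval 2.90 to 11.5), against 16.4% over the rest of chromosome 17 (151 of 920 peaks, interval 14.1 to 19.0) and 12.7% over the whole control list. The difference from the rest of the chromosome was -10.2 percentage points (interval -14.4 to -4.39). The window from 23000001 to 28000000, the only 5 Mb window with more peaks, was also low, with 14 of 164 control peaks control-only (8.54%). Of the 151 knockout peaks 10 were knockout-only (6.62%, interval 3.22 to 11.8), against 8.38% over the rest of the chromosome (73 of 871) and 8.71% over the whole knockout list. That difference, -1.76 percentage points, had an interval from -5.73 to 3.75. These intervals cover counting error over peaks taken as independent, and not the variation between animals or libraries.

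The lower control-only share went with stronger peaks. In control islets 61.1% of the region's peaks (88 of 144, interval 52.6 to 69.1) reached the median score of the whole list, 1988, against 46.1% over the rest of chromosome 17 (interval 42.8 to 49.4). In knockout islets the shares were 53.6% (interval 45.4 to 61.8) and 49.3% (interval 45.9 to 52.6) for that list's median of 1591. The tied score of 3100 was reached or passed by 73 control peaks of the region (50.7%) and by 352 of the rest of the chromosome (38.3%). It was reached or passed by 33.8% of knockout peaks in the region and by 33.6% of those outside it. Weak control peaks, with a score under 100, made up 5.56% of the region and 10.8% of the rest. Higher scores were not particular to the region. In the 5 Mb window from 23000001, 65.2% of control and 64.9% of knockout peaks reached their list's median, and 85 of 164 control peaks reached 3100.

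Within classes of score, the region was not below the rest of the chromosome throughout. For control peaks scoring 60 to under 100, 3 of 8 (37.5%, interval 8.52 to 75.5) were control-only in the region and 72.7% outside it. For scores of 100 to under 300 the values were 2 of 13 (15.4%) and 38.7%, while for 300 to under 1000 the region was the higher, with 2 of 23 (8.70%) and 7.25%. From 1000 to under 3100 it was again the higher, with 2 of 27 control peaks in the region (7.41%, interval 0.910 to 24.3) and 2 of 158 outside it (1.27%, interval 0.154 to 4.50). The intervals of region and rest overlapped in all of these classes, those where the region was lower included. At 3100 or more, 0 of 73 control peaks in the region (interval 0 to 4.93) and 0 of 352 outside were control-only. Knockout peaks gave 5 of 11, 4 of 25, 1 of 26, 0 of 38 and 0 of 51 over the same classes. These are 45.5%, 16.0%, 3.85%, 0% and 0%, against 45.1%, 14.8%, 1.55%, 0.541% and 0% over the rest of chromosome 17.

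**Figure D2:**
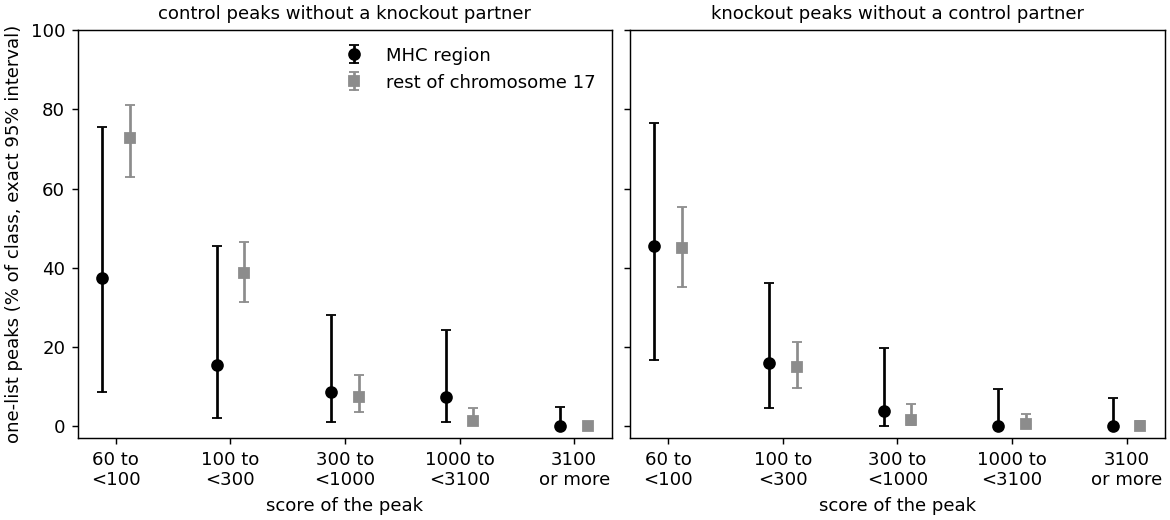
Share of peaks found in 1 list alone (%), by score class, for control peaks (left) and Men1 knockout peaks (right); black circles are the MHC region, grey squares the rest of chromosome 17, and bars are exact 95% intervals. In control peaks the region is lower than the rest in the weakest class (37.5% against 72.7%) and higher in the class from 1000 to under 3100 (7.41% against 1.27%). The intervals of region and rest overlap in every class.

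Among the top 50% of each list by score, the direction of the control difference was the opposite. Of the 88 control peaks of the region at or above their list's median score, 9 (10.2%, interval 4.78 to 18.5) had no partner among the knockout peaks at or above theirs, against 15 of 424 (3.54%, interval 1.99 to 5.77) over the rest of chromosome 17 and 5.97% over the whole list. The difference between region and rest was 6.69 percentage points (interval 0.81 to 15.1). For knockout peaks the values were 1 of 81 (1.23%) and 3.26%. Of these 9 control peaks, 4 lay between 36150001 and 36400000, where only 5 control peaks reached the median, and 5 of 83 (6.02%) lay elsewhere in the region. Those limits were chosen after the values were seen, so this split is a description only. Among the 4, control peaks scoring 2692, 3100 and 2171 had knockout partners that scored 864, 376 and 1258, and the control peak scoring 2672 had none. The other 5 had knockout partners that scored from 829 to 1575, below the knockout list's median of 1591.

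The control-only peaks of the region included some of the highest-scoring of the whole list. The highest was a 1411 bp peak from 36304242 to 36305652 with a score of 2672, second among all 2775 control-only peaks, and the nearest knockout peak was 5509 bp away. Next was a 2082 bp peak from 36178720 to 36180801 with a score of 1060, ninth among all, 8666 bp from a knockout peak. Over the whole control list 12 control-only peaks scored 1000 or more, so these are 2 of 12. Next came 34117957 to 34119439, 1483 bp wide with a score of 533 and 1542 bp from a knockout peak. A pair of control-only peaks stood 118 bp apart, at 36257570 to 36258088 (score 73.5) and 36258207 to 36259224 (score 359). The remaining 4 scored from 91.7 to 192, were 634 to 950 bp wide, and lay at 33474817, 34701272, 35051316 and 35530891.

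Knockout-only peaks had lower deposited scores, in a list whose median score was also lower (1591, against 1988 in the control list). The highest was an 823 bp peak from 36326140 to 36326962 with a score of 425, 15096 bp from the nearest control peak. It was followed by 1105 bp from 33014051 to 33015155 (score 257), 1019 bp from 33088343 to 33089361 (score 185) and 403 bp from 34238572 to 34238974 (score 165). The other 6 scored from 62.3 to 104 and were 567 to 1010 bp wide, at 34350255, 36388915, 34428671, 36352339, 34011170 and 35876335. None of the 10 reached the knockout list's median score, and few did anywhere: 0 of 73 over the rest of chromosome 17 and 2 of 1867 over the whole list. With the depth of the libraries unknown, it cannot be said whether an absent peak was beyond detection.

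Shared peaks of the region were slightly narrower in the knockout list, as in the rest of the lists. A pair here is a control peak and a knockout peak that overlap each other and no further peak. Over the region's 129 pairs, median widths were 1871 bp for control and 1643 bp for knockout peaks. On the log2 scale the knockout width over the control width had a median of -0.10 (95% interval -0.16 to -0.07, SD over pairs 0.29), which is 93.3% of the control width. Over the 729 pairs of the rest of chromosome 17 the median was -0.13 (interval -0.14 to -0.11). The difference was 0.03 (interval -0.04 to 0.06), which does not set the region apart. The knockout peak was narrower in 98 pairs of the region (76.0%, against 73.8% of all 18299 pairs), wider in 30 and equal in 1.

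Larger changes in width were mostly narrowings, in the region as over all pairs. The knockout peak was narrower by 1.5 times or more in 11 of the 129 pairs (8.53%, interval 4.33 to 14.7). The share was 6.11% of all pairs and 6.17% (45 of 729) over the rest of chromosome 17. The knockout peak was wider by that much in 0 pairs, against 0.945% of all pairs and 0.823% (6 of 729) over the rest of the chromosome. Where both scores were at least 3100 (49 pairs), the median log2 ratio was -0.06 and 0 pairs passed 1.5 times. Such pairs gave -0.10 and 0 of 271 over the rest of chromosome 17, and -0.09 and 44 of 6726 (0.654%) over the whole lists. The 5 greatest widenings had log2 ratios from 0.29 to 0.54, and all had narrow, weak control peaks of 613 to 836 bp that scored 62.8 to 171. The greatest of them was a control peak of 613 bp (35680301 to 35680913, score 64.0) beside a knockout peak of 889 bp (score 157). By windows of 1 Mb the median ratio was -0.20, -0.05, -0.10, -0.22 and -0.02 from left to right, over 23, 34, 41, 19 and 12 pairs.

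**Figure D3:**
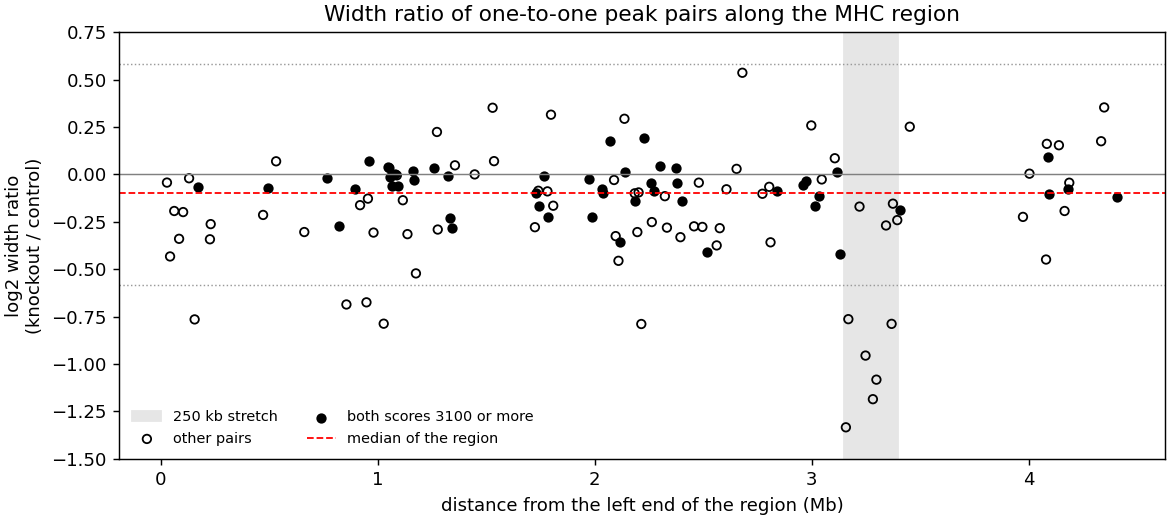
Log2 width ratio (knockout over control) of the 129 one-to-one pairs against distance from the left end of the MHC region (Mb); filled points have scores of 3100 or more in both lists, the red line is the median (-0.10), dotted lines mark 1.5 times, and grey marks the 250 kb stretch described in the text. Of the 11 pairs below the lower dotted line 6 lie in the grey stretch, and 0 pairs lie above the upper one.

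Many of the larger differences lay in 1 stretch of 250 kb, from 36150001 to 36400000. The stretch and its limits were chosen after the values were seen. Its limits do not follow the windows of 250 kb plotted above. The windows it spans, from 36000001 and from 36250001, had knockout lengths of 81.8% and 78.1% of the control length. The lowest such share, 77.9%, was in the window from 33250001, with 3 control peaks. The stretch itself held 14 control peaks that covered 18699 bp and 13 knockout peaks that covered 11027 bp, or 59.0% of the control length. In the rest of the region the knockout length was 93.4% of the control length. The stretch held 4 of the region's 9 control-only and 3 of its 10 knockout-only peaks. All 10 pairs in the stretch were narrower in the knockout list, 6 of them by 1.5 times or more. Their median log2 ratio was -0.78. Elsewhere in the region the median over 119 pairs was -0.09, and 5 pairs passed 1.5 times. Because the stretch was chosen with these values known, no interval is given and the contrast is a description only.

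The greatest narrowing in the region was at 36157115 to 36158463, where the control peak was 1349 bp wide (score 265) and the knockout peak 535 bp (score 68.2), a log2 ratio of -1.33. At 36281527 to 36283073 the control peak was 1547 bp wide (score 3100) and the knockout peak 680 bp (score 376), a log2 ratio of -1.19. At 36297918 to 36299010 the widths were 1093 and 516 bp (scores 189 and 70.1), and at 36247688 to 36248975 they were 1288 and 664 bp (scores 818 and 105). These are 4 of the 5 lowest ratios of the region. The fifth lay outside the stretch, at 35214269 to 35215298, with 1030 and 596 bp (scores 398 and 70.4). The pair at the right end of the stretch, at 36393740 to 36395389, had a log2 ratio of -0.24, with 1650 and 1396 bp and scores of 3042 and 2344.

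The one-list peaks of both genotypes lay among the pairs of the stretch. From left to right, control-only peaks lay at 36178720, 36257570, 36258207 and 36304242, and knockout-only peaks at 36326140, 36352339 and 36388915. Each control-only peak was thus to the left of each knockout-only peak. In control islets the peaks of the stretch had a median width of 1380 bp and a median score of 939. In knockout islets these were 711 bp and 152. The knockout peak had the lower score in 9 of the 10 pairs, and in the rest of the region in 55 of 119 pairs, with 45 tied.

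**Figure D4:**
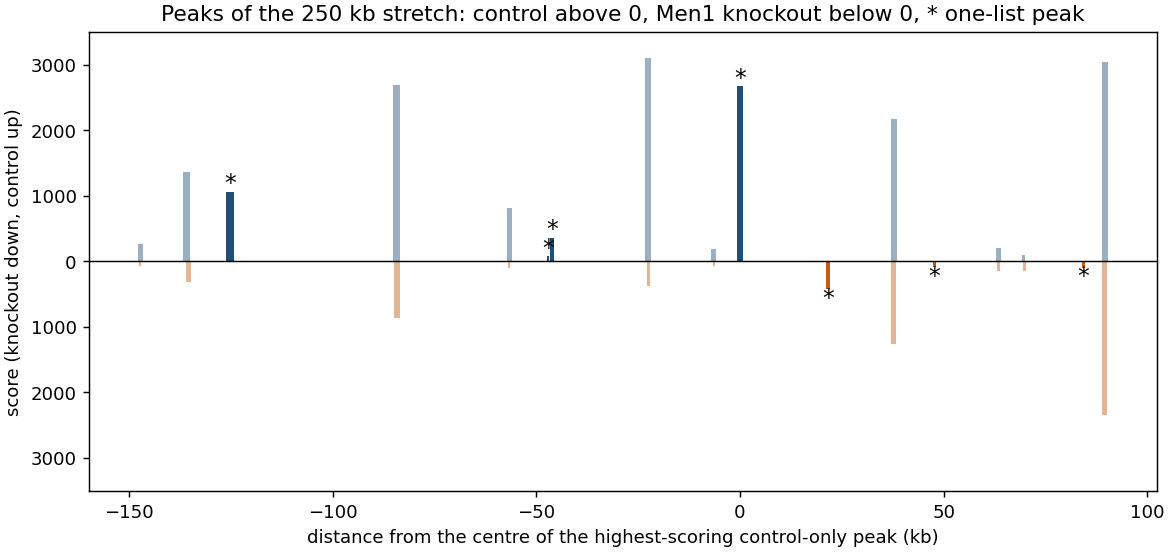
Peaks of the stretch from 36150001 to 36400000, drawn as bars with their width (x axis, kb from the centre of the highest-scoring control-only peak) and their deposited score (y axis), control upward and Men1 knockout downward; pale bars are shared peaks and stars mark peaks of 1 list alone. The peak at 0 kb (score 2672) has no knockout counterpart, and the shared pair at the right end scores 3042 in control and 2344 in knockout islets.

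The strain background mixed 3 strains, and a difference in the MHC haplotype between the mice of the 2 libraries and an effect of the Men1 genotype cannot be told apart in these lists, which hold no sequence of the mice. How reads that match several places were treated is not given in the sources used here, and their part in these peaks was not tested.

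Control domains were sometimes split in the knockout list. In the region 6 control peaks overlapped 2 knockout peaks each, and 0 knockout peaks overlapped 2 control peaks. Joined into 135 regions marked in both lists, 6 (4.44%) held more knockout than control peaks, against 29 of 763 (3.80%) over the rest of chromosome 17. Outside the region on chromosome 17, 34 of 920 control and 5 of 871 knockout peaks overlapped 2 or more peaks of the other list. Over the whole lists these were 565 of 21905 and 156 of 21434, so more splits than joins were seen there too. In the domain from 34399910 to 34402564 a control peak of 2655 bp was represented by knockout peaks of 750 and 1405 bp, which is 81.2% of the control width. From 35833628 to 35835724, a control peak of 2097 bp faced pieces of 561 and 1045 bp (76.6%). The other 4, from 34765954, 35977538, 36001998 and 36051865, kept 86.9 to 98.0% of the control width as the summed width of 2 pieces, which may reach outside the control peak. The gap between the pieces was widest, 429 bp, in the domain from 34765954.

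The peaks just inside and outside the limits were as follows. The last peak to the left of the region was shared, at 32965909 to 32967802 in control islets (score 3100), and the first inside was a knockout-only peak at 33014051. The last peak inside was shared, at 37406843 to 37408826 in control islets (score 3100). Beyond the right limit the next peaks were a control-only peak of 739 bp at 38132519 (score 86.2) and a knockout-only peak of 1134 bp at 39147770 (score 343).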

How the data were processed

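Peak lists of 2 of the 18 samples were used, H3K4me3 of RIP-Cre control and of Men1 knockout islets at 2 months, 1 library each. The other 16 samples were not analysed here. Bowtie, MACS 1.4.2 and build mm9 are named in the submitters' processing notes. What served as control in peak calling, any filters and any pooling were not given in the sources used here. A deposited list has a chromosome, start, end and score per peak and no header. The score is the authors' deposited value, from 60.01 and 60.02 upward, on a scale the lists do not state. Without read counts the depth is unknown, and scores were compared within a list or given side by side. Lists were matched to samples by genotype, age and mark in their names, which also carry an unexplained "2nd". Unused per-sample columns numbered 0.

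Peaks were kept as deposited. Positions are mm9, counted from 1. Overlaps (at least 1 bp), width ratios of one-to-one pairs and windows by peak midpoint were computed with Python 3.11.15, pandas 2.3.3, numpy 2.4.6 and scipy 1.17.1. bedtools 2.31.1 counted the same 19130 shared control and 19567 shared knockout peaks, and the functions were tested on simulated data. Shares have exact (Clopper-Pearson) 95% binomial intervals, medians have order-statistic intervals, and intervals of differences combine those of both parts as the root of summed squares. No p-value was computed.

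Regions named are, per list, the 8 one-list peaks with the highest score, the 8 broadest domains marked in both lists, the 5 pairs at each end of the width ratio, and one-list peaks at or above the list's median. Others were named after their values were seen. The region, the rules and the gene groups were chosen with earlier results of these data known. The rule for naming genes needed an mm9 annotation and was not used. The motifs were chosen after the promoter sequences were seen. Alternatives varied the overlap, the score threshold, merging, the limits of the region and the comparison set.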

Additional observations from a re-analysis of the deposited data

How the results depend on the processing

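Of 76 values recomputed for 6 results under 14 alternatives, 70 stayed within the 95% interval of the reported value and the others did not, while 5 changed sign, 3 of them inside the interval. The control-only difference between the region and the rest of chromosome 17, -10.2 percentage points, became 6.69 (interval 0.81 to 15.1) when both lists were limited to their top 50% by score and 1.14 (interval -0.27 to 6.17) when only the list counted was so limited. With only the list counted limited, the control-only share was 1.14% (1 of 88 peaks) and the knockout-only share 0% (0 of 81 peaks). The knockout-only share was 13.2% with a reciprocal overlap of 50% and 1.23% with both lists limited to their top 50%. The cause was not tested, except that these alternatives leave out weaker peaks or demand more overlap. The knockout-only difference, -1.76 percentage points with an interval that includes 0, was 0.71 at a score of at least 100, 0.19 without the window from 35 to 36 Mb and 1.10 against chromosome 17 within 10 Mb, so its sign was not settled. Leaving out the window from 36 to 37 Mb gave a control-only share of 4.20%. With the region limited to 34 to 37 Mb, the control-only difference was -9.01 percentage points (interval -13.9 to -1.94). The median width ratio ranged from -0.12 to -0.07 over its alternatives. No paired analysis was possible because there is 1 library of each genotype, and for the same reason no library could be left out. Depth is unknown, so detection limits cannot be given.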
